A study of Mus musculus with 18 samples.

Results

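The 10 genes described here encode gut hormones and the first enzyme of serotonin synthesis, and they were taken by function from the 32286 features counted in single-cell RNA-seq libraries of mouse ileal crypts. They are Ghrl (ghrelin), Gcg (proglucagon), Cck (cholecystokinin), Gip (glucose-dependent insulinotropic polypeptide), Sst (somatostatin), Pyy (peptide YY), Nts (neurotensin), Sct (secretin), Tac1 (the precursor of substance P) and Tph1 (tryptophan hydroxylase). The study deleted Setdb1, a histone H3 lysine 9 methyltransferase, in Lgr5+ intestinal stem cells and asked which lineages the cells then entered. The Lgr5+ experiment compared 2 libraries of Lgr5-GFP-CreERT2 mice (WT) with 2 libraries from mice that also had floxed Setdb1 alleles (Lgr5-GFP-CreERT2/Setdb1lox/lox, called Setdb1-KO). The lineage-traced experiment compared 2 and 2 libraries of the same genotypes that also carried the nTnG reporter, which turns from tdTomato to GFP after Cre recombination and so keeps stem cells and their progeny labelled. Mice of every group were C57Bl6 animals of 60 to 65 days, received tamoxifen at 70 mg/kg intraperitoneally and were analysed 5 days later, so the WT mice also carried the Cre knock-in and the drug. GFP+ cells of the ileal crypts were sorted and stored frozen in DMSO before capture.

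Enteroendocrine cells are rare, scattered cells of the gut epithelium that arise from crypt stem cells through a Neurog3-positive progenitor and secrete peptide hormones from dense-core granules. Peptide-producing subtypes (ghrelin, somatostatin, incretin and cholecystokinin cells among them) are classically set apart from enterochromaffin cells, which make serotonin with Tph1 and often co-produce substance P. Secretin is made by several of these subtypes.

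Barcodes with 1000 (Lgr5+) or 500 (lineage-traced) to 18000 UMIs and under 5% mitochondrial UMIs are called cells here. A UMI, or unique molecular identifier, marks 1 captured RNA molecule at its 3′ end. These limits kept 4768 and 6133 cells of the Lgr5+ WT libraries, 2894 and 11423 of the Lgr5+ Setdb1-KO libraries, 7860 and 3882 of the traced WT libraries and 4816 and 10239 of the traced Setdb1-KO libraries, 52015 in all. Median depth ran from 4686 to 9336 UMIs per Lgr5+ cell and from 961 to 2085 UMIs per traced cell. Total UMIs ran from 16881518 to 81876035 per library. Any 2 libraries shared 3 to 34 cell barcodes, and 0 of the shared barcodes were positive for a member in both libraries. An Lgr5 UMI was found in 3.84% to 11.7% of the cells of the Lgr5+ libraries, so most cells of the sort carried no Lgr5 transcript that was counted. Cre was driven from the Lgr5 locus, the number of mice per library is not given in the sources used here, and p-values measure the spread between libraries only.

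Setdb1 itself stood at 10.9 and 10.3 CPM (counts relative to library size, after TMM scaling) in the Lgr5+ WT libraries and at 5.12 and 6.51 CPM in the Lgr5+ Setdb1-KO libraries (log2 fold change -0.85, SE 0.144, adjusted p = 0.0470, edgeR), and the call was lost when WT replicate 1, WT replicate 2 or KO replicate 1 was left out (adjusted p = 0.136, 0.103 and 0.105). In the traced libraries it stood at 7.07 and 5.28 CPM in WT and at 7.91 and 7.17 CPM in Setdb1-KO (0.24, adjusted p = 0.603). The floxed exon 3 lies away from the counted 3′ end, so these counts do not check the deletion.

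The promoters of the 3 members that passed a test between genotypes are shown, Sst and Sct from the Lgr5+ libraries and Ghrl from the traced libraries. Ghrl was also higher in the Lgr5+ Setdb1-KO libraries without passing (log2 fold change 1.68, beside 1.72 for Sst and 1.17 for Sct). The 3 promoters differ in which searched motif they hold. Of TGACGTCA (the cAMP response element) and TATAAA (a form of the TATA box), searched as exact letters on both strands, Sst holds the first, Sct the second and Ghrl neither. Other forms of the TATA box, such as the tatataag in the Ghrl window, were not searched. Of the 4 start sites listed for Ghrl, the site nearest the outer end of the gene was used. Sequences are from RefSeq on GRCm38.p6 (mm10), 250 bases before to 50 bases after the start site, written 5′ to 3′ on the minus strand, on which all 3 genes lie. Capitals mark a TGACGTCA in Sst, 48 bases upstream of the start, and a TATAAA in Sct, 28 bases upstream. The Sst window is chr16:23890795-23891094 (gene body chr16:23889573-23891342), the Sct window chr7:141279084-141279383 (gene body chr7:141278329-141279174) and the Ghrl window chr6:113719862-113720161 (gene body chr6:113716119-113719911).
Sst: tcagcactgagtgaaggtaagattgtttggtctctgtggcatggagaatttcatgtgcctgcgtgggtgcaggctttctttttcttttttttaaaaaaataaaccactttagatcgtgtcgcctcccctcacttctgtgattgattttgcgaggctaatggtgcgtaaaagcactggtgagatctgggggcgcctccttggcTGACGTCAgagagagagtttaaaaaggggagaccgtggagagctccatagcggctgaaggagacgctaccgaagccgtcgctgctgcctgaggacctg
Sct: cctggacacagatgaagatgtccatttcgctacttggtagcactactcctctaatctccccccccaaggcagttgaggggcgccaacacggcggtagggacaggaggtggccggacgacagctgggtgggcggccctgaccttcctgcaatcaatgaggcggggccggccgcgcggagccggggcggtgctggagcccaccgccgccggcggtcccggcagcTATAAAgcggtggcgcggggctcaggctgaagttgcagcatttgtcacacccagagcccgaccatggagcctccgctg
Ghrl: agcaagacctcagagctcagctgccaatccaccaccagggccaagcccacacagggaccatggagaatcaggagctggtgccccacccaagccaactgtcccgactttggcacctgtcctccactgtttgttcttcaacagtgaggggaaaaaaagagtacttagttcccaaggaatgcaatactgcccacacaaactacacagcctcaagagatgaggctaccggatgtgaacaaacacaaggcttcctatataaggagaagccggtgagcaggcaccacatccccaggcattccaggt
TGACGTCA was found in 1 of the 10 member promoters and in 1.79% of all 32851 promoters of this length. TATAAA was found in 2 of the 10 (Sct and Gcg) and in 13.6% of all promoters. The E-box CANNTG, the general target of basic helix-loop-helix factors, was found in 9 of the 10 and in 72.3% of all promoters. A match describes these letters in this window and is not a measured binding site.

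A cell was called positive for a gene at 3 or more UMIs, because hormone RNA was also free in the suspension. A single Ghrl UMI was found in 3.90% and 7.19% of Lgr5+ WT cells and in 8.74% and 8.07% of Lgr5+ Setdb1-KO cells, while enterocyte-gated cells, which do not make ghrelin, held it in 4.55%, 6.43%, 8.24% and 6.67% of cells of the same libraries. For Ghrl, a share at 1 UMI is therefore at background. At 3 UMIs, 0, 0, 0 and 1 of the 88, 249, 279 and 540 enterocyte-gated cells were Ghrl-positive, although these cells were deeper than the endocrine ones (medians of 5257.5 to 11341 against 2487 to 5393 UMIs). Barcodes of 1 to 50 UMIs, which hold mostly free RNA, carried Ghrl at 241, 267, 359 and 467 CPM in Lgr5+ WT 1, WT 2, KO 1 and KO 2.

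Each hormone marked a small share of the sorted cells. In the Lgr5+ WT libraries the shares ran from 0.0629% and 0.0652% for Nts (3 and 4 cells) to 1.07% and 1.06% for Cck, with Sct apart from the other members at 9.63% and 7.30%. In the traced libraries the shares ran from 0% to 0.391% outside Sct and from 0.799% to 4.08% for Sct. The traced cells were shallower, so shares of the experiments are given side by side and not compared. A count of 0 in 3882 traced WT 2 cells, as for Ghrl, Sst and Pyy, allows a share of up to 0.0773%, set at 3 counts. All intervals and limits given here cover counting error only.

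In the Lgr5+ libraries, 6 of the 10 members (Ghrl, Cck, Gip, Sst, Tac1 and Tph1) had a higher share of positive cells in both Setdb1-KO libraries than in either WT library, and none had a lower share in both. Over the 9812 features with a positive cell in at least 1 of these libraries, 4.29% showed that order. Features with very few positive cells are included, so this share is not matched to the abundance of the members. With 2 libraries against 2, an exact two-sided permutation test cannot go below p = 0.33, which is the value for each of the 6. KO replicate 1 was the highest of the 4 libraries for every member except Nts.

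**Figure D1:**
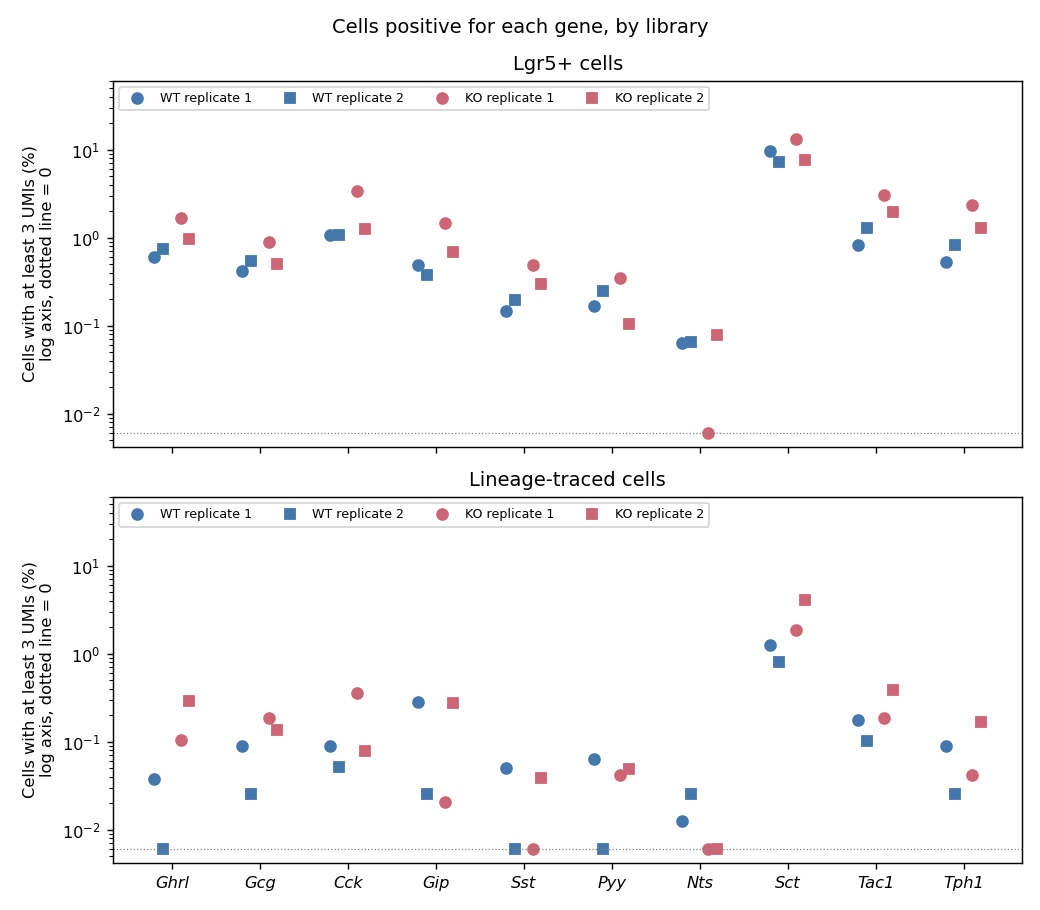
Share of cells with at least 3 UMIs of each gene (%, log axis) in every library, Lgr5+ above and lineage-traced below. Blue points are WT, red points Setdb1-KO, circles replicate 1 and squares replicate 2, and points on the dotted line are 0. Both red points lie above both blue points for 6 of the 10 genes in the upper panel and for 4 in the lower panel.

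Among the enterochromaffin genes, Tph1 was positive in 0.524% and 0.815% of Lgr5+ WT cells and in 2.35% and 1.30% of Setdb1-KO cells (means 0.670% ± 0.206 and 1.82% ± 0.745, SD, n = 2). The KO mean was 2.72 times the WT mean, and the groups did not overlap. Tac1 was positive in 0.818% and 1.29% of WT cells and in 3.01% and 1.95% of Setdb1-KO cells, a ratio of means of 2.35. Summed over each library, Tph1 stood at 5.81 and 11.6 CPM in WT and at 27.2 and 18.1 CPM in Setdb1-KO. Its log2 fold change of 1.37 (SE 0.318) did not pass the test over all genes (adjusted p = 0.0961, edgeR). Tac1 went from 21.3 and 42.5 CPM to 119 and 61.8 CPM (1.5, SE 0.380, adjusted p = 0.117).

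Among the peptide hormones of the upper gut, Sst, the inhibitory hormone of D cells, was higher in both Setdb1-KO libraries. It stood at 30.4 and 54.2 CPM in Lgr5+ WT, against 165 and 114 CPM in Setdb1-KO, in 7, 12, 14 and 34 positive cells. The fitted difference of 1.72 on the log2 scale (SE 0.280, 3.30-fold) passed the test (adjusted p = 0.0428). The call was lost without WT replicate 1 (adjusted p = 0.0619) and without KO replicate 1 (adjusted p = 0.0606), and with no low-count filter (adjusted p = 0.133).

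Sct, the hormone that drives bicarbonate secretion, stood at 124 and 134 CPM in Lgr5+ WT and at 342 and 239 CPM in Lgr5+ Setdb1-KO. The difference was 1.17 on the log2 scale (SE 0.163, 2.25-fold) and passed the test (adjusted p = 0.0297), and the call was lost without WT replicate 1 (adjusted p = 0.0970), without WT replicate 2 (adjusted p = 0.0728) and with no low-count filter (adjusted p = 0.0950). Its share of positive cells did overlap between the genotypes, at 9.63% and 7.30% in WT and 13.1% and 7.67% in Setdb1-KO. The mean shares had a ratio of 1.22, beside the 2.25-fold difference in UMIs, and the number of cells with any Sct UMI gave 0.33 on the log2 scale (adjusted p = 1.00). In KO replicate 1 the 15 richest cells held 50% of the Sct UMIs, against 100, 85 and 102 cells in WT 1, WT 2 and KO 2.

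Ghrl and Gip had similar or larger differences that did not pass. Ghrl, the orexigenic hormone of X/A-like cells, stood at 139.9 and 207 CPM in Lgr5+ WT and at 812 and 302 CPM in Setdb1-KO (1.68, SE 0.425, adjusted p = 0.116). A large part of the KO 1 value came from a single cell with 8805 Ghrl UMIs, which made up 57.0% of that cell's RNA. In the 3 other libraries the richest cell held 1652, 1466 and 2363 Ghrl UMIs. Gip, the incretin of K cells, stood at 137 and 159 CPM in WT and at 1028 and 289.8 CPM in Setdb1-KO (2.15, SE 0.508, adjusted p = 0.0996). The UMIs of both genes lay in few cells, since the 2 to 12 richest cells per library held 50% of the Ghrl UMIs and the 4 to 17 richest held 50% of the Gip UMIs. Without KO replicate 1 the values were 0.80 for Ghrl and 0.97 for Gip (adjusted p = 0.152 and 0.0141), and without KO replicate 2 they were 2.22 and 2.79 (adjusted p = 0.00105 and 0.000108).

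Cck, Gcg, Pyy and Nts did not pass either, and Pyy and Nts had the largest standard errors of the 10. Cck, which stimulates gallbladder contraction, stood at 137 and 248 CPM in WT and at 503 and 244 CPM in Setdb1-KO (0.95, SE 0.371, adjusted p = 0.255). Gcg, the L-cell precursor of GLP-1, gave 0.73 (SE 0.468, adjusted p = 0.475) and Pyy, its usual partner in L cells, gave 1.49 (SE 0.788, adjusted p = 0.384). For both, KO replicate 2 was no higher than the higher WT library. Nts, the neurotensin gene of N cells, had 0 UMIs in KO replicate 1 and 1194 in KO replicate 2, against 381 and 404 in WT, and its fitted value of 0.14 (SE 1.11) carried no information on direction.

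Over all 10 members, every fitted value in the Lgr5+ experiment was above 0, their median was 1.43 on the log2 scale against -0.01 over the 13662 genes tested, and 2 were called, against 1.34% of all genes. At an unadjusted p under 0.05 there were 7 of the 10, against 17.5% of all genes. These counts moved with single libraries. Without KO replicate 2, so against KO replicate 1 alone, 10 of 10 members passed (9 higher and Nts lower), and 3 passed without KO replicate 1. Without WT replicate 1 none passed.

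**Figure D2:**
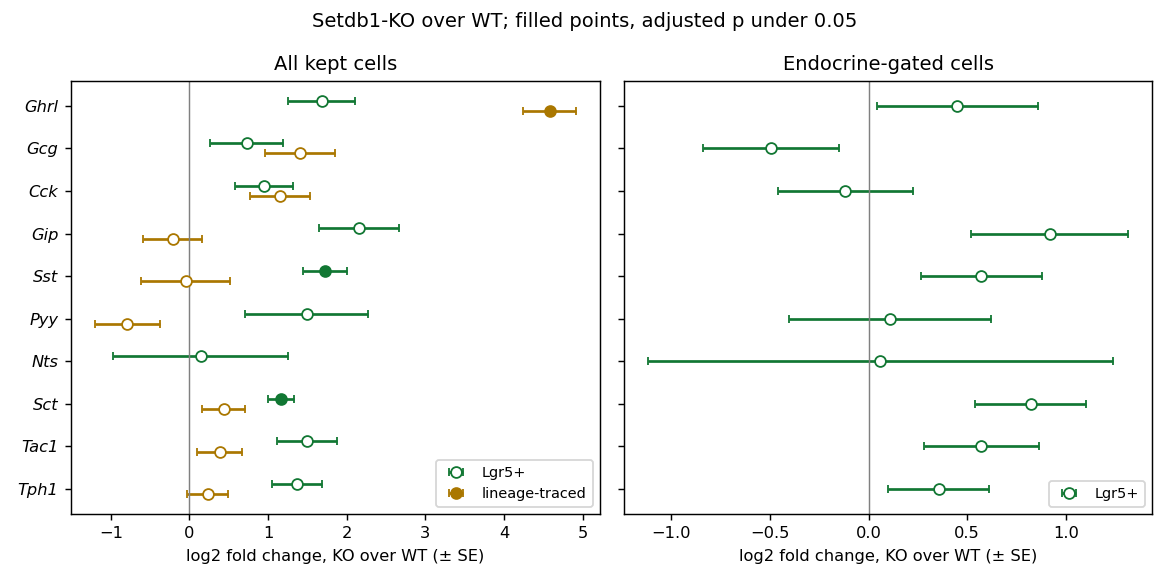
Fitted log2 fold change of Setdb1-KO over WT (± SE) for each gene in all kept cells of the Lgr5+ (green) and lineage-traced (amber) experiments, left, and in the endocrine-gated cells of the Lgr5+ experiment, right. Filled points have an adjusted p under 0.05, which in the left panel are Sst and Sct in Lgr5+ cells and Ghrl in traced cells, and no point is filled in the right panel.

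To ask whether the hormones rose per endocrine cell or with the number of such cells, cells were gated on 12 endocrine genes that do not include a member (at least 3 of Chga, Chgb, Cpe, Scg2, Scg3, Scg5, Pcsk1, Pcsk1n, Neurod1, Cplx2, Rfx6 and Insm1, and at least 0.2% of the UMIs). The gate took 125 and 185 cells of the Lgr5+ WT libraries and 213 and 513 cells of the Lgr5+ Setdb1-KO libraries, or 2.62% and 3.02% against 7.36% and 4.49% (2.82% ± 0.279 against 5.93% ± 2.03, SD, n = 2). The KO mean was 2.10 times the WT mean (exact permutation p = 0.33), and 1.59 times without KO replicate 1. With every cell thinned to 1000 UMIs the ratio was 2.23.

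Within these gated cells, no member was called in the Lgr5+ experiment by edgeR or by DESeq2, where 0.0705% (edgeR, 6 genes) and 0.106% (DESeq2, 9 genes) of all 8514 genes tested passed. At an unadjusted p under 0.05 there were 2 members, against 466 genes in all (5.47%). The median over the members was 0.40 against -0.01 over all genes, beside 1.43 over the members in all kept cells. Sct was higher by 0.82 (adjusted p = 0.775) and Gip by 0.92 (adjusted p = 0.899), whereas Gcg was at -0.49 and Cck at -0.12. The gate held 95.6%, 93.7%, 98.8% and 69.3% of the Ghrl UMIs in WT 1, WT 2, KO 1 and KO 2. For Sst it held 84.5%, 90.2%, 98.3% and 63.1%. The gated values of Ghrl (0.45) and Sst (0.57) therefore leave out more of the RNA of KO 2. Among gated cells, Sct was positive in 61.6% and 61.6% of WT and in 66.2% and 57.1% of Setdb1-KO cells, and Gcg in 14.4% and 16.8% of WT and in 11.7% and 10.3% of Setdb1-KO cells. Tph1 was positive in 20.0% and 27.0% of the WT cells and in 31.9% and 28.7% of the Setdb1-KO cells, and Tac1 in 27.2% and 37.3% against 40.8% and 43.3%. In summed libraries, fewer cells of a type and less RNA per cell cannot be told apart, and the part that the number of gated cells plays in the values above was not tested.

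The members differed in how closely they kept to the endocrine gate. Of the Tph1-positive cells, 99.3% to 100% lay in the gate in all 8 libraries. In the Lgr5+ libraries, the gate held 86.6% to 95.4% of Cck-positive, 90.0% to 96.2% of Gcg-positive, 90.5% to 95.7% of Gip-positive, 87.2% to 100% of Tac1-positive, 83.3% to 93.3% of Pyy-positive and 79.3% to 89.1% of Ghrl-positive cells. For Sst the gate held 71.4%, 66.7%, 92.9% and 70.6% of 7, 12, 14 and 34 positive cells, and for Nts 33.3%, 75% and 100% of 3, 4 and 9 (WT 1, WT 2 and KO 2). Sct had the smallest part of its positive cells in the gate in each Lgr5+ library, 16.8% and 25.4% in WT and 37.3% and 33.4% in Setdb1-KO. Goblet-gated cells, the mucus-secreting lineage, were Sct-positive in 37.3%, 28.3%, 33.2% and 21.5% of cells (WT 1, WT 2, KO 1, KO 2), against 1.14%, 0.803%, 2.15% and 1.67% of enterocyte-gated cells (medians of 4683 to 8360 and 5257.5 to 11341 UMIs). These gates overlap, with 188 to 821 cells per Lgr5+ library in more than 1 of them. Among cells in no other gate, goblet-gated cells were Sct-positive in 38.2%, 25.6%, 35.9% and 22.3%, and tuft-gated cells in 12.0%, 3.33%, 29.6% and 5.69%. Nearly every Paneth-gated cell that was Sct-positive lay in a further gate (26.8%, 30.8%, 20.7% and 13.3% positive in all, but 0, 0, 0 and 1 cells of 10, 2, 1 and 89 in the Paneth gate alone). Whole libraries therefore carried Sct from goblet-gated and tuft-gated as well as endocrine-gated cells, and 37.0%, 51.1%, 78.7% and 63.5% of the Sct UMIs lay in the endocrine gate.

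**Figure D3:**
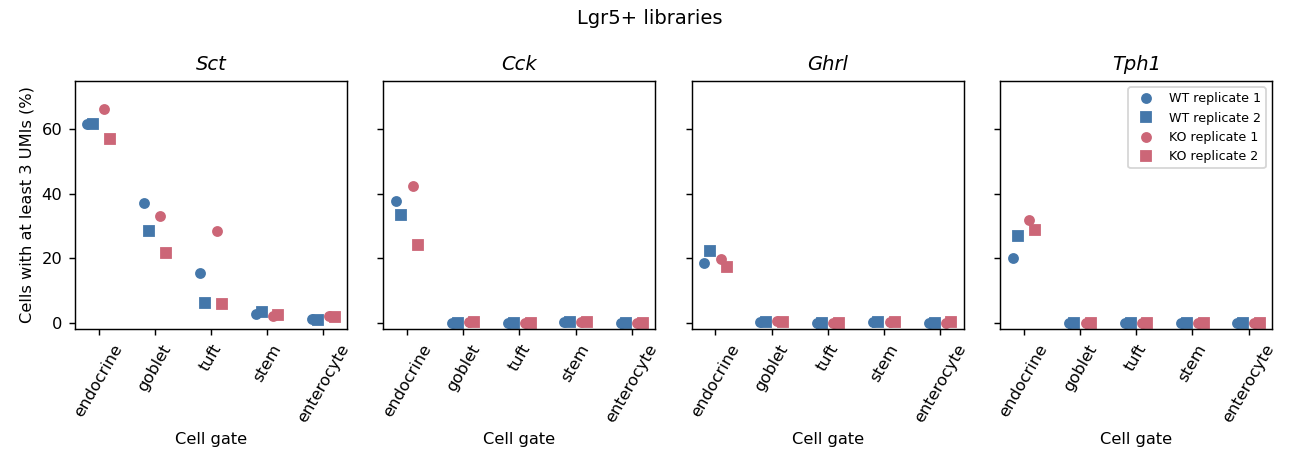
Share of cells with at least 3 UMIs (%) of Sct, Cck, Ghrl and Tph1 in 5 marker-gated cell groups of the Lgr5+ libraries. Blue points are WT, red points Setdb1-KO, circles replicate 1 and squares replicate 2. Sct was found in 57.1% to 66.2% of endocrine-gated and 21.5% to 37.3% of goblet-gated cells, whereas Tph1 was near 0% outside the endocrine gate.

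In the lineage-traced libraries, Ghrl was the 1 member called. It had 48 and 19 UMIs in WT, against 623 and 2555 in Setdb1-KO, or 2.90 and 2.95 CPM against 52.4 and 87.3 CPM after scaling. Both Setdb1-KO libraries were far above both WT libraries, with a fitted difference of 4.58 on the log2 scale (SE 0.333, 23.9-fold, adjusted p = 2.4e-06, edgeR). As a ratio of summed UMI shares, without TMM scaling, the difference was 36.1-fold (95% counting interval 28.4 to 46.7). The same ratio was 3.49 for Gcg, 2.42 for Cck, 2.03 for Sct, 1.96 for Tac1 and 1.69 for Tph1. It was 1.54 for Sst, 1.30 for Gip, 0.949 for Pyy and 0.0989 for Nts. The Ghrl UMIs came from few cells, with 3 and 0 positive cells in WT and 5 and 30 in Setdb1-KO. The richest cell held 12 and 1 UMIs in WT, against 508 and 611 in Setdb1-KO. Without the richest cell of each member in each library, an alternative chosen after seeing the data, the difference was 4.00 (adjusted p = 0.00287). Barcodes of 1 to 50 UMIs held Ghrl at 13.0 and 8.28 CPM in WT and at 48.5 and 58.2 CPM in Setdb1-KO, so the free RNA of the libraries moved in the same direction.

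Of the 9 members tested in the traced libraries (Nts was too low), 1 was called, against 8.73% of the 12205 genes tested, and at an unadjusted p under 0.05 there were 3, against 20.3% of all genes. The median was 0.38 against 0.01 over all genes. Gcg (1.40, SE 0.446, adjusted p = 0.0792) and Cck (1.15, SE 0.379, adjusted p = 0.0899) were next. Sct (0.43, adjusted p = 0.411), Tac1 (0.38, adjusted p = 0.488) and Tph1 (0.23, adjusted p = 0.664) had smaller values. Pyy was at -0.79 (adjusted p = 0.313), and Gip at -0.21 (adjusted p = 0.794) and Sst at -0.05 (adjusted p = 0.973) lay above 0 with library totals in place of TMM scaling (0.25 and 0.36). These libraries depend on the scaling. With library totals the median over all genes was 0.54, and the calls over all genes split into 3316 higher and 491 lower in place of 188 higher and 878 lower. With library totals Ghrl was at 5.07, and Gcg, Cck, Sct and Tac1 passed as well.

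By share of positive traced cells, Ghrl, Gcg, Sct and Tac1 were higher in both Setdb1-KO libraries than in either WT library and Nts was lower in both. For Nts this rests on 1 positive cell in each WT library and 0 in each Setdb1-KO library. The limits for those counts of 0 (0.0623% and 0.0293%) lie above both WT shares (0.0127% and 0.0258%). The order with both Setdb1-KO libraries higher has its share over all features next. That order was common, at 35.9% of all features compared, so 4 of 10 is close to the background. Ghrl was positive in 0.0382% and 0% of WT cells and in 0.104% and 0.293% of Setdb1-KO cells. The endocrine gate took 45 and 16 WT cells and 30 and 89 Setdb1-KO cells (0.573% and 0.412% against 0.623% and 0.869%, a ratio of means of 1.52, exact permutation p = 0.33). With cells thinned to 500 UMIs, the groups overlapped. In these gated cells Ghrl had 1 and 0 UMIs in WT and 535 and 1109 in Setdb1-KO, a ratio of UMI shares of 602 with a counting interval of 108 to 23773. Ghrl could pass the low-count filter there only through the Setdb1-KO libraries, so these values are a description with no test. Of the other 7 members tested (Sst and Nts were too low) none was called, against 3.10% of the 807 genes tested. In the same gated cells Sct had 147 and 9 UMIs in WT and 140 and 424 in Setdb1-KO, and Tph1 had 51 and 12 against 24 and 128. Of the 5 and 30 Ghrl-positive traced Setdb1-KO cells, 40.0% and 33.3% lay in the gate.

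The Lgr5+ sort carries no lineage label. The paper counts mature enteroendocrine cells among its co-purifying cells without GFP, so hormone-positive cells there need not descend from recombined stem cells. For Ghrl, the difference between Setdb1-KO and WT was not the same in the experiments. The difference of the log2 fold changes was 2.92 (SE 0.617, adjusted p = 0.0135), and it was the 1 member called of 10, against 7.58% of the 13781 genes tested. The call was lost without traced WT replicate 1 (adjusted p = 0.102), without traced WT replicate 2 (0.0587) and without the richest cells (2.40, adjusted p = 0.190). Gip moved the other way, at -2.35 (adjusted p = 0.0840). Over the 10 members the median was -1.10 against 0.04 over all genes, and 5 had an unadjusted p under 0.05, against 22.0% of all genes. With library totals the median over all genes was 0.56, and calls over all genes split into 2775 above and 517 below in place of 208 and 837.

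Pairs of members were then counted in the 1216 endocrine-gated cells of the 8 libraries, 1036 of them Lgr5+. The expected number assumes that both genes are positive independently within each library. Of the 45 pairs, 21 were seen more often than expected, 24 less often, and 6 never. Cells within a library share their source, so these are descriptions with no test. In Lgr5+ WT 1, WT 2, KO 1 and KO 2, 66.4%, 74.6%, 77.0% and 65.9% of the gated cells were positive for 2 or more members, 40.0%, 41.6%, 52.1% and 37.6% for 3 or more, and 17.6%, 12.4%, 7.04% and 11.1% for none. In the shallower traced libraries, 31.1%, 0%, 30.0% and 43.8% were positive for 2 or more and 40.0%, 62.5%, 43.3% and 27.0% for none.

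The pairs with the most cells were Tac1 with Tph1, found in 293 cells against 126 expected (2.32 times, above expectation in 6 of 6 libraries with at least 1 expected), Cck with Sct (290 against 203, 7 of 7 libraries), Sct with Tac1 (246 against 266), Sct with Tph1 (182 against 184) and Gip with Sct (147 against 96.6, 6 of 6 libraries). In Lgr5+ WT 1, WT 2, KO 1 and KO 2, the Tac1 and Tph1 double-positive cells were 17.6%, 27.0%, 31.0% and 26.5% of gated cells, and these ranges overlapped. Least often seen relative to expectation, among pairs with at least 10 expected cells, were Gcg with Tph1 (1 against 37.4), Ghrl with Tph1 (2 against 56.3) and Gcg with Tac1 (2 against 54.4).

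A split between the peptide genes and Tac1 or Tph1 was described after the values were seen, and not all remaining pairs followed it. All 14 pairs of Tac1 or Tph1 with Ghrl, Gcg, Cck, Gip, Sst, Pyy or Nts lay below expectation, with 56 cells counted over the pairs against 636 expected, and the highest of the 14 ratios was 0.152. Of the 21 pairs among those 7 peptide genes, 13 lay above and 8 below. Among the pairs above expectation were Gcg with Pyy (40 cells against 5.79), Ghrl with Sst (31 against 9.37), Gcg with Cck (137 against 42.4), Cck with Pyy (41 against 14.0) and Ghrl with Gcg (67 against 25.3). Gcg with Sst was seen in 0 cells against 6.15 expected, and Ghrl with Gip in 13 against 29.4. Sct lay above expectation with all 7 peptide genes, at ratios from 1.14 to 1.67, and near it with Tac1 and Tph1 (0.925 and 0.991). The expectation counts all gated cells, those positive for Tac1 or Tph1 included. Ratios above 1 among the peptide genes and Sct therefore do not by themselves show pairing within the peptide cells, which was not tested.

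**Figure D4:**
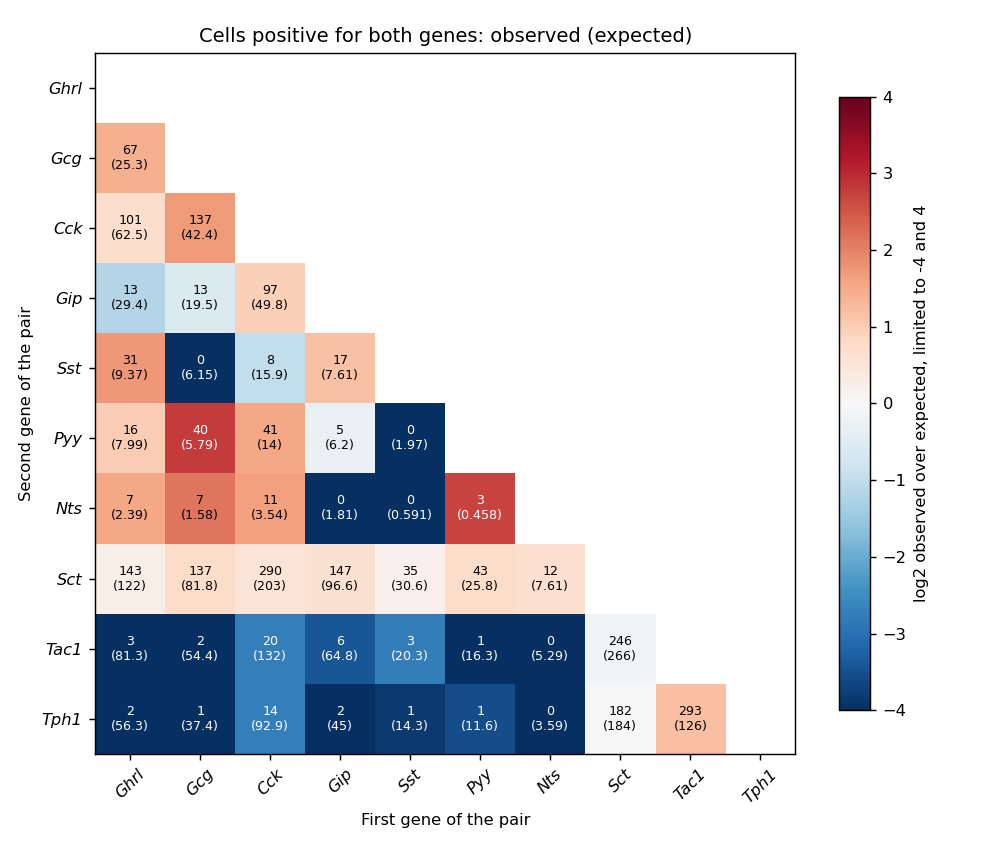
Number of endocrine-gated cells of the 8 libraries positive for both genes of each pair, with the number expected under independence within libraries in brackets, coloured by the log2 ratio of observed to expected. The rows of Tac1 and Tph1 are blue against every peptide gene except Sct, and the cell where they meet is red, with 293 cells against 126.

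Cells were also grouped by the member with the most UMIs, counted only at 3 UMIs or more. Tac1 led 22.4% and 27.6% of gated Lgr5+ WT cells and 32.4% and 36.3% of Setdb1-KO cells, and Gcg led 8.0% and 5.95% against 3.76% and 2.92%. Neither overlapped between the genotypes. The shares led by Sst (4.0% and 3.78% against 5.16% and 4.09%) did not overlap either. The same held for cells led by no member (17.6% and 12.4% against 7.04% and 11.1%). It also held for Nts (0.8% and 1.08% against 0% and 0.780%), on 1, 2, 0 and 4 cells. Cck led 12.0%, 13.5%, 18.8% and 10.5%, Gip 11.2%, 9.73%, 11.7% and 9.36%, Sct 14.4%, 11.9%, 11.7% and 14.2% and Ghrl 8.0%, 10.3%, 8.45% and 8.58% in WT 1, WT 2, KO 1 and KO 2, all with overlap between the genotypes. The exact permutation p is 0.33 at its smallest here too. These groups divide the same gated cells, so their shares are not independent, and no background was counted for a lack of overlap.

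**Figure D5:**
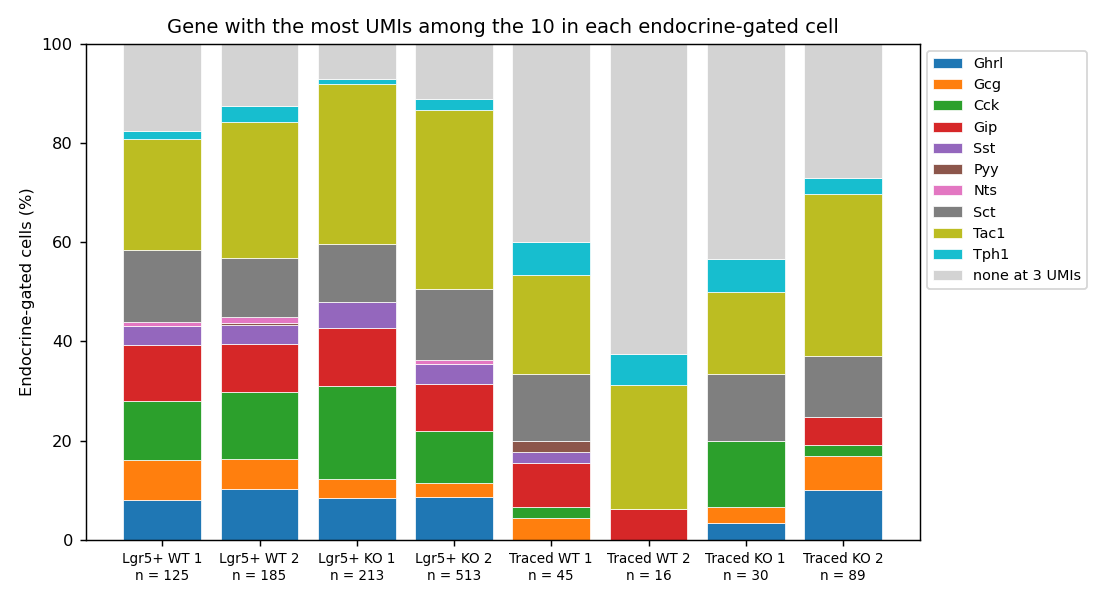
Endocrine-gated cells of each library (%) by the gene with the most UMIs among the 10, with n the number of gated cells. Grey is the share with no member at 3 UMIs. Tac1 led 22.4% to 36.3% of the Lgr5+ cells, and the grey share was 7.04% to 17.6% there.

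The groups are described by the granins Chgb and Chga, which belong to the gate, and by Neurog3. Of these, only Neurog3 took no part in forming the gate or the groups. Ghrl and Cck are given in the groups that they led. In Tac1-led Lgr5+ cells the granin Chgb stood at 39235, 41733, 49711 and 39977 CPM and its relative Chga at 7961 to 11929 CPM. Ghrl-led cells had Chgb at 313, 1100, 496 and 325 CPM, with Ghrl itself at 94518, 98669, 189992 and 96510 CPM. Lgr5+ cells with no member at 3 UMIs carried Neurog3, the transcription factor of endocrine progenitors, at 827, 1024, 795 and 623 CPM, and Tac1-led Lgr5+ cells at 157 to 450 CPM. In the traced libraries the cells with no member had 0, 0, 390 and 33.6 CPM, and the 9 Ghrl-led cells of KO 2 had 786 CPM. Gip-led and Gcg-led cells had 0 Neurog3 UMIs in all 4 Lgr5+ libraries. In the Cck-led cells of KO replicate 1, Neurog3 stood at 879 CPM, against 9.73, 84.1 and 163 CPM in WT 1, WT 2 and KO 2, and the median Cck share of their UMIs was 0.333% against 1.37%, 5.93% and 5.08%, a contrast picked out after the values were seen.

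The genes most alike to a member were those with the largest smallest log2 difference in CPM (10 added) between cells led by that member and the other gated cells, over the libraries with at least 10 such cells. For Ghrl these were Acsl1 (an acyl-CoA synthetase, 3.75 to 4.55 over 4 libraries), Maged2 and Serpina1c. For Gip they were Fabp5 (a fatty acid-binding protein, 3.94 to 4.47 over 4 libraries), Cnr1 (a cannabinoid receptor) and Gatm. For Tac1 they were Vim (vimentin, 2.10 to 2.78 over 5 libraries), Mnx1 (a homeobox factor) and Slc38a11. For Cck they were Fars2, Onecut3 and Lect2, at 1.77 to 2.74 for the first over 4 libraries, and for Sct they were Id2 (0.72 to 2.21 over 5 libraries), Cwh43 and Efnb1. Gcg, Sst, Tph1, Pyy and Nts led too few cells in too few libraries.

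Lists of genes around the members were counted in the same fits, and no list stands as a test of its own. In the Lgr5+ experiment, where edgeR called 1.34% of all genes and DESeq2 3.67%, granin and prohormone processing genes had 2 of 17 tested called higher and none lower (median 1.07), namely Rab3c, a vesicle GTPase (1.81, adjusted p = 0.0355), and Scg5, a chaperone of prohormone convertase (2.24, adjusted p = 0.0440), with Chga just outside (1.52, adjusted p = 0.0538). Other hormones had 1 of 10 called higher (median 1.02), Ucn3, urocortin 3, at 3.10, with Iapp at 1.71 (adjusted p = 0.0650). Ucn3 stood at 0.149 and 0.376 CPM in WT and at 2.58 and 2.02 CPM in Setdb1-KO. It needed a Setdb1-KO library to pass the low-count filter, so its value is a description with no test. Endocrine transcription factors had 1 of 25 higher (median 1.02), Lmx1a, known from enterochromaffin cells (1.94, adjusted p = 0.0313). Sensing genes had 1 of 12 higher (median 1.02), the irritant channel Trpa1 (2.67, adjusted p = 0.0213). The serotonin pathway beyond Tph1 had 0 of 11 called in edgeR (median 0.48), 8 of 11 at an unadjusted p under 0.05 (17.5% of all genes) and 4 called higher by DESeq2, with Maob at 0.88 (adjusted p = 0.0557) and Gch1 at 0.63 (adjusted p = 0.0679). DESeq2 called 12 granin and processing genes, 2 other hormones, 7 transcription factors and 3 sensing genes higher. Neither tool called a gene of the 5 lists lower. Within the endocrine gate the medians were 0.15 (granin and processing genes, several of them gate genes), 0.70 (other hormones) and 0.14 (transcription factors). They were 0.19 for sensing genes and 0.30 for the serotonin pathway. The part of the number of endocrine cells in the values over all kept cells was not tested. In the gated Lgr5+ cells, edgeR called Ucn3 from the lists (2.24), but not without WT replicate 1 or without the richest cells of the members (adjusted p = 0.0617). Ucn3 stood there at 9.61 and 17.6 CPM in WT and at 58.9 and 72.4 CPM in Setdb1-KO. It again needed a Setdb1-KO library to pass the filter, so this too is a description with no test. In all kept cells, calls were lost for Ucn3 without WT replicate 1 (adjusted p = 0.0608), and for Rab3c, Scg5 and Lmx1a without WT replicate 1 (0.115, 0.126 and 0.102) or WT replicate 2 (0.0728, 0.0728 and 0.0722). With no low-count filter Ucn3, Trpa1, Lmx1a, Rab3c and Scg5 did not pass (0.0755, 0.0755, 0.0845, 0.108 and 0.128).

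In the traced experiment edgeR called 8.73% of all genes, and with library totals 27.2% were higher and 4.02% lower. The serotonin pathway list went the other way from the Lgr5+ list, with 4 of 11 lower and none higher (median -0.62), but with library totals in place of TMM scaling 2 were higher and none lower. Maoa, which degrades serotonin, fell by 1.24 on the log2 scale (adjusted p = 0.00627), Gch1, which starts the synthesis of the hydroxylase cofactor, fell by 1.07 (adjusted p = 0.0145), and Ddc, the decarboxylase that completes serotonin synthesis, fell by 0.93 (adjusted p = 0.0157). These 3 calls were lost with library totals (adjusted p = 0.0542, 0.173 and 0.257), and without traced WT replicate 1 for Maoa and Ddc (0.113 and 0.205) and without traced WT replicate 2 for Gch1 and Ddc (0.0727 and 0.0600). Maoa and Ddc are also known from enterocytes, and the enterocyte gate held 1046 and 337 traced WT cells but 53 and 160 traced Setdb1-KO cells, a difference whose part in these values was not tested. The gates other than the endocrine gate overlap, with 4316 and 2984 traced WT and 845 and 2840 traced Setdb1-KO cells in more than 1 of them. Guca2b, uroguanylin, was the 1 called of 4 other hormones and fell by 1.95 (adjusted p = 0.000725). The part of cell makeup in this value was not tested either. Endocrine transcription factors had 4 called higher and 1 lower of 18 (median 0.69, and 10 higher and none lower with library totals). Isl1 was at 1.63, Insm1 at 1.27 (adjusted p = 0.0267) and Pdx1, which is not confined to endocrine cells, at -1.26 (adjusted p = 0.0120). Granin and processing genes had 2 of 12 called higher, Cplx2 at 1.01 (adjusted p = 0.0275) and Scg2 at 1.63. Scg2 stood at 0.423 and 0.621 CPM in WT and at 1.43 and 1.57 CPM in Setdb1-KO. It passed the low-count filter only through the Setdb1-KO libraries. Isl1 stood at 1.63 and 0.466 CPM in WT and at 3.03 and 4.47 CPM in Setdb1-KO, and needed a Setdb1-KO library to pass the filter. The values of Scg2 and Isl1 are therefore descriptions with no test. Of 5 sensing genes Ffar2, a receptor for short-chain fatty acids, was higher by 1.34 (adjusted p = 0.00191). The calls of Cplx2 and Insm1 were lost without traced WT replicate 1. With each library left out in turn, Cplx2 ran from 0.79 to 1.24 and Insm1 from 0.92 to 1.47. Scg2 ran from 1.27 to 1.81 and Isl1 from 1.23 to 3.02. In the traced gated cells edgeR called Chga, which is itself a gate gene (-1.75, adjusted p = 0.00433), but not without WT replicate 2 (0.392) or with no low-count filter (0.921), and Guca2a, guanylin (-2.13, adjusted p = 0.0375), which was not called with DESeq2 (0.319), with library totals (0.0588), with no low-count filter (0.921) or without WT replicate 2 or KO replicate 2 (0.248 and 0.552). With DESeq2 Gch1, Pdx1, Cplx2 and Insm1 did not pass (adjusted p = 0.0919, 0.0613, 0.0692 and 0.136).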

How the data were processed

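The 8 libraries were made from GFP+ ileal crypt cells with the 10x Genomics 3′ assay. The authors deposited raw UMI counts per feature and barcode, made with Cell Ranger (6.1.1 in the submitters' processing notes) on mm10, unfiltered and not normalized. The counts were read as whole numbers, 16881518 to 81876035 per library, and 29.7% to 74.9% of them lay in kept cells. The barcode limits, the 3-UMI rule, and the gates are given with the results. Other gates asked for at least 3 listed markers and 1% (goblet) or 1.5% (enterocyte) of UMIs. Doublets were left in, and a version without the highest Scrublet scores (0.8% per 1000 cells) was an alternative.

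UMIs were summed per library over kept or gated cells. Genotypes were compared with edgeR 4.0.16 (filterByExpr, TMM, quasi-likelihood test) in R 4.3.3, with Benjamini-Hochberg adjustment over all genes tested at 0.05, and fits were tested on simulated data. Only the experiment compared entered each fit, and the interaction used all 8 libraries. Shares were compared by exact two-sided permutation. DESeq2 1.42.0, library totals, no filter, a replicate block, other cell limits and leaving out each library were alternatives. Python 3.11.15, numpy 2.4.6, scipy 1.17.1 and scanpy 1.11.5 were used for the rest.

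Members are named in full. Of each list, up to 3 genes with the smallest p are named, and of pairs the 5 with the most cells and the 3 lowest against expectation. Other pairs were named after their values were seen. The members and lists were chosen with earlier results of these data known.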

Additional observations from a re-analysis of the deposited data

Results flagged for a closer look

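The 11 genes named first below were called in the interaction over the 8 libraries (edgeR), so Setdb1-KO against WT differed between the Lgr5+ and lineage-traced experiments. In that fit 7.58% of the 13781 genes tested were called. Calls below 0 covered 6 of 11 serotonin pathway genes (4, with 1 above 0, by library totals) and 6 of 17 granin and processing genes (3 by library totals). There was also 1 call of 25 transcription factors, 1 of 12 sensing genes, and 1 above and 1 below 0 of 8 other hormones. Values are the log2 fold change in traced cells minus that in Lgr5+ cells. Ghrl, at 2.92 (adjusted p = 0.0135), was higher in all 4 Setdb1-KO libraries than in the WT libraries of its experiment, with 4.58 in traced and 1.68 in Lgr5+ cells. Setdb1 differed by 1.09 (adjusted p = 0.0327), with a call below 0 in Lgr5+ cells and none in traced cells. In the serotonin pathway, Gch1 differed by -1.69 (adjusted p = 0.00137), Maoa by -1.49 (adjusted p = 0.00450), Ddc by -1.40 (adjusted p = 0.00293) and Maob by -1.37 (adjusted p = 0.0285). Chga, the granin chromogranin A, differed by -2.51 (adjusted p = 0.00845), with 1.52 in Lgr5+ cells and -1.02 in traced cells, neither of them called. Chga is a gate gene, so its value in gated cells adds no support. Pthlh, parathyroid hormone-like hormone, differed by 2.33 (adjusted p = 0.0225). Guca2b differed by -2.24 (adjusted p = 0.000902), Rab3c by -2.18 (adjusted p = 0.0134) and Pdx1 by -1.44 (adjusted p = 0.0130). Snap25 (-2.64, adjusted p = 0.0247) and Sstr1 (-4.61, adjusted p = 0.00718), from the granin and sensing lists, were called as well. With library totals in place of TMM scaling 9 of the 11 passed, and Maob (-0.85, adjusted p = 0.139) and Pdx1 (-0.98, adjusted p = 0.0595) did not. With DESeq2 all 11 passed. Without traced WT replicate 1, Rab3c (adjusted p = 0.163), Pdx1 (0.0633), Pthlh (0.170), Snap25 (0.307) and Sstr1 (0.186) did not pass, and Pthlh and Snap25 also failed without Lgr5+ WT replicate 1 (0.0851 and 0.0708) or Lgr5+ KO replicate 1 (0.0594 for both), Pthlh without traced WT replicate 2 (0.0554) and Snap25 without traced KO replicate 2 (0.0582). The experiments also differed in depth and cell makeup, and the part of these in the values was not tested.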

How the results depend on the processing

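Ghrl in traced cells stayed past the threshold in the same direction under each alternative run. Counts moved more. In Lgr5+ cells the 183 genes and 2 members called became 502 genes with DESeq2, 363 genes and 6 members with library totals, 35 and 0 with no low-count filter, 24 and 0 when cells with a UMI were counted, and 65 to 527 genes and 0 to 10 members when a library was left out. In traced cells the 1066 genes and 1 member became 3807 and 5 with library totals, with 5 members under no filter, 3 with 200 to 4000 genes and no doublets, 2 at 10% mitochondrial UMIs, 3 by cells with a UMI, and 586 to 2449 genes and 1 to 6 members without a library. The interaction went from 1045 genes and 1 member to 3292 and 2 (library totals), 1568 and 7 (no filter), 0 members without the richest cells, and 529 to 2118 genes and 0 to 3 members without a library. In Lgr5+ gated cells the 6 genes and 0 members became 13 genes (library totals), 98 and 1 (no filter), 42 (no doublets), 0 (without the richest cells) and 0 to 236 genes and 0 to 2 members without a library. In traced gated cells the 25 genes and 1 member became 9 and 2 (no filter), 14 (gate at 0.1%), 2 members without the richest cells, and 14 to 73 genes and 2 to 4 members without a library. The 1 member of the traced gated cells was Ghrl, which could pass the low-count filter there only through the Setdb1-KO libraries. Its value is a description with no test, and no other member was called in that fit with all libraries. The member counts given for traced gated cells are therefore no evidence that a call held across the alternatives. The 4 members with a higher traced share in both Setdb1-KO libraries became 4 to 7 without a library.

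The values that turned direction were not called with all libraries, and the cause was not tested. After turning, Nts passed without Lgr5+ KO replicate 2, which leaves 0 Nts UMIs in Setdb1-KO (all kept cells, adjusted p = 0.000108, and gated cells, 1.00e-66), as did Sst without traced KO replicate 1 (0.0405) and Pyy in Lgr5+ gated cells without KO replicate 1 (0.0112). In Lgr5+ cells Nts went to -0.14 without the richest cells and -0.16 by cells with a UMI, and without a library Nts ran from -11.5 to 1.06, Gcg from -0.33 to 1.33 and Pyy from -0.21 to 2.55. In traced cells Gip went to 0.25 and Sst to 0.36 with library totals and Gip to 0.014 by cells with a UMI, and without a library Gip ran from -1.20 to 0.32, Sst from -2.43 to 0.65, Tac1 from -0.20 to 0.74 and Tph1 from -0.11 to 0.44. In Lgr5+ gated cells Pyy went to -0.28 at a gate of 0.5%, Nts to -0.44 without the richest cells and -0.28 at a gate of 0.1%, and without a library Ghrl ran from -0.29 to 0.95, Cck from -0.40 to 0.22, Pyy from -0.95 to 1.06 and Nts from -11.3 to 1.05.

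The replicate numbers of the labels gave 2 pairs per experiment, and no source used here ties a number to a shared mouse, litter or day, so they are read as names. Deviations of same-numbered libraries correlated at 0.0117 (Lgr5+) and 0.309 (traced), and 2 pairs do not settle whether the traced libraries were paired. With the replicate as a block, calls went to 51 genes and 0 members (Lgr5+), 2579 and 4 (traced) and 1729 and 2 (interaction). They went to 17 genes in Lgr5+ gated cells and 39 genes in traced gated cells. Nts went to -0.82 in Lgr5+ cells and to -1.48 in Lgr5+ gated cells. Sst and Sct in Lgr5+ cells had adjusted p = 0.120 and 0.0780 with the block (edgeR). Depth limits the rarest members, with 0 to 9 Nts-positive, 8 to 15 Pyy-positive and 7 to 34 Sst-positive cells per Lgr5+ library, and 0 to 40 cells per traced library for each member other than Sct.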
